A study of Mus musculus with 27 samples.

Results

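Spleen RNA of NOD mice, an inbred strain that develops autoimmune diabetes, was compared between 16 and 20 weeks of age as a ratio to the NOD.B10 control strain. The comparison used 9 of the 27 arrays of the series, chosen by their age labels alone: 4 arrays of 16-week mice and 5 arrays of 20-week mice. Each array carried NOD spleen RNA in the green dye (Cy3) and NOD.B10 spleen RNA in the red dye (Cy5). All mice were female, the tested strain was NOD/LtJ and the control strain was NOD.B10Sn-H2b/J, a congenic line that keeps the NOD background but carries the H2b haplotype of the major histocompatibility complex and does not become diabetic. The series used 2 groups of 10 NOD.B10 mice, aged 10 days and 20 weeks, as control tissue, and which of them, or whether a pool of them, was put on a given array is not given in the sources used here. The same disease label stands on every sample, so no mouse was known to be hyperglycaemic or not from the labels. Nothing in the labels says that the arrays of an age came from separate mice, so p-values measure the spread between arrays.

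The age difference stands together with 2 technical differences. All 4 arrays of 16 weeks were scanned on 1 day and all 5 arrays of 20 weeks on another day, 28 days later, so age and scan day cannot be told apart. For that reason the change of each dye stands beside the ratio change of a named gene, in log2 units over the 75th percentile of that dye (marked NOD and NOD.B10 where given in parentheses), and values of 12-week arrays scanned with the 16-week arrays are placed beside the ratios. NOD.B10 dye profiles also differed between the ages: across genes, they correlated at r = 0.988 to 0.995 among the 16-week arrays, at 0.984 to 0.994 among the 20-week arrays and at 0.957 to 0.976 between the ages. On a shared scan day, 16-week with 12-week arrays correlated at 0.971 to 0.984 and 20-week with 10-day arrays at 0.917 to 0.933. Medians of 24 exocrine pancreas genes in the NOD.B10 dye were 5.61 to 5.90 at 16 weeks and 3.68 to 3.93 at 20 weeks. On the 12-week arrays scanned with the 16-week arrays they were -0.16 to 0.02. How much of the difference between 16 and 20 weeks came from the NOD.B10 RNA and how much from the scan day was not tested. A change of the ratio can therefore lie in either dye. Whether arrays of an age shared the same NOD.B10 RNA is not given in the sources used here, so the p-values of the ratio and of the NOD.B10 dye may leave out the spread between control mice.

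The spleen holds lymphocytes and macrophages, and in mice its red pulp also keeps blood-forming cells that make neutrophils and red cells, a capacity that grows in inflammation and anaemia. Neutrophil granules are filled in order: primary granules with Mpo and the serine proteases at the promyelocyte stage, secondary granules with Ltf, Camp and Ngp at the myelocyte stage. Red cell precursors switch on the factors Gata1 and Klf1, then heme synthesis, iron uptake and the membrane skeleton, and divide while they do so. Fibroblastic reticular and smooth muscle cells form the scaffold of the spleen and its capsule.

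Genes of neutrophil granules and of red cell precursors led the rises of the ratio, and the upstream sequence of 6 of them is shown because the lists they stand for moved together. Each of the 6 windows holds a match to a motif named below, so they do not represent all members. Windows of Camp, Ms4a3, Cd177, Sptb, Abcb10 and Gata1, from the same lists, held no match. Each window holds the 250 bases before the annotated start of the gene in RefSeq, build GRCm38.p6, printed 5′ to 3′ on the strand of the gene. Capitals mark matches on either strand to TTGCNNAA, the core of C/EBP motifs, or AGGAAGT, bound by PU.1, in the neutrophil genes, and to the GATA motifs AGATAA or TGATAA in the erythroid genes. Ngp lies at chr9:110419558-110419807 on the + strand and has TTGCNNAA at -138 and, on the opposite strand, at -11 from the start. Mmp8 lies at chr9:7558179-7558428 on the + strand, with AGGAAGT at -221 on the opposite strand and TTGCNNAA at -19. Mpo lies at chr11:87793534-87793783 on the + strand, with AGGAAGT at -223. Kel, chosen after its window was seen because it holds both GATA motifs, lies at chr6:41704326-41704575 on the - strand with AGATAA at -56 and TGATAA at -19. Klf1 lies at chr8:84901732-84901981 on the + strand and has TGATAA at -80 on the opposite strand. Alas2 lies at chrX:150547167-150547416 on the + strand and has AGATAA at -86 on the opposite strand.
Ngp: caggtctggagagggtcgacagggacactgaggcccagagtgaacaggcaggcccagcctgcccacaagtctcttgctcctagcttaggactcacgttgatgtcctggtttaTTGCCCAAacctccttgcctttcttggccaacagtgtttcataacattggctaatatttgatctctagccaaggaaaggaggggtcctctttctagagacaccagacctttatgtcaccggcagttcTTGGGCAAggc
Mmp8: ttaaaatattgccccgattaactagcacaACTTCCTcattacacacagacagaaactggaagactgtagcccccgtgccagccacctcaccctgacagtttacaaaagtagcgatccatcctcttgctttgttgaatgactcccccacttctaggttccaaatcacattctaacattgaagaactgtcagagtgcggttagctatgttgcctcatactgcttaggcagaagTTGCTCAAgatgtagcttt
Mpo: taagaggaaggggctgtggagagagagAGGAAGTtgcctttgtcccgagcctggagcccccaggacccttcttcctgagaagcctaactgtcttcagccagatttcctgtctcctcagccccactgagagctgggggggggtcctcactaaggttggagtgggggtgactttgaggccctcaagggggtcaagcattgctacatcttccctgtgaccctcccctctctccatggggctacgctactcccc
Kel: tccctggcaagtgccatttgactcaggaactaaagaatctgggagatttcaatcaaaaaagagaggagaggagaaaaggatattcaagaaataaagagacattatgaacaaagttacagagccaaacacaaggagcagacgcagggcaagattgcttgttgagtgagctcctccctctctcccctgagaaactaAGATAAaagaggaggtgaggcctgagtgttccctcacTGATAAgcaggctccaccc
Klf1: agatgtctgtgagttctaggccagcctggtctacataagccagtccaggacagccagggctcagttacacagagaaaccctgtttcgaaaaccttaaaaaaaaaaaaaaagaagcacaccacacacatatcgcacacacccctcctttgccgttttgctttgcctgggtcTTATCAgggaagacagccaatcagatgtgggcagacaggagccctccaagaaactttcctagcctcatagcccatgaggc
Alas2: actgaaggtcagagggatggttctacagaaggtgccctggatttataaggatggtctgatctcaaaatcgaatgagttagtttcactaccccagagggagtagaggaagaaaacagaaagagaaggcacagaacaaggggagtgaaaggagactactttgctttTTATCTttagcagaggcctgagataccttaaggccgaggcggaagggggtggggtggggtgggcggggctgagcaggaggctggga

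Of 35 tested genes of the neutrophil lists, 17 rose at least 2-fold in the ratio (6.3% of all tested genes did), and 15 of them had such a window. TTGCNNAA was in a window of 6 of them (40%, against 10.8% of all 27025 genes with a window) and AGGAAGT in 7 (46.7%, against 8.8%). Of 58 tested genes of the erythroid lists, 46 had such a rise, and 33 of them had a window. AGATAA was found for 9 of them (27.3%, against 11.4% of all genes) and TGATAA for 7 (21.2%, against 9.21%). CCACACCC, a KLF1 motif, was in 0 of the 33 (3.68% of all genes), and TTGCGCAA, a special case of TTGCNNAA, in 0 of the 15 (0.185%). These shares describe the letters in the windows, with no test.

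On all 9 arrays 13556 genes had a probe whose signal cleared the background in each dye, by the scanner software's own call, and these genes were tested on log2(NOD signal over NOD.B10 signal). With limma at a Benjamini-Hochberg adjusted p under 0.05, 53.8% of them differed between the ages, 22.9% with a higher and 30.8% with a lower ratio at 20 weeks (3108 and 4179 genes). With each array centred on its median, 3567 were higher and 3576 lower. At least a 2-fold change was called for 854 higher genes (6.3%) and 809 lower genes (5.97%). The NOD dye alone differed for 37.2% of genes (18% higher, 19.2% lower) and the NOD.B10 dye alone for 48.4% (29.7% higher, 18.7% lower). The NOD.B10 split depended on the scaling: 61.3% of its calls were higher with the dye scaled on its 75th percentile and 50.9% with the dye scaled on its median. Among ratio changes of at least 2-fold, 51.4% were higher, against 61.5% after normexp background correction with loess and 59.8% with centred arrays. The median ratio change over all genes was -0.08 on the log2 scale, and lists are read beside that value. Among the 854 genes that rose at least 2-fold, 75% to 125% of the change lay in the NOD dye for 275 and in the NOD.B10 dye for 82. The corresponding counts among the 809 genes that fell were 324 and 66. The remaining genes changed in both dyes, or by more than 125% of the ratio change in 1 of them.

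Other facts of these arrays bear on all values. In the NOD dye 72.7% to 86.4% of the spots cleared the background by that call, and in the NOD.B10 dye 52.4% to 80.9% did. Some lists of spleen cells were measured nearly whole: 21 of 22 B cell genes, 23 of 24 T cell genes and 21 of 22 macrophage and red pulp genes passed the filter. Others were not: 11 of 20 regulatory and activated T cell genes passed, without Foxp3, Il2ra and Ctla4. So did 10 of 21 mast cell, basophil and eosinophil genes and 14 of 20 mature neutrophil genes. Of 14 hepatocyte genes 0 passed. Genes of exocrine pancreas, an organ that lies against the spleen, were present at levels that differed between arrays and ages. In the NOD.B10 dye the median level of 24 such genes was 5.61 to 5.90 on the 16-week arrays, 3.68 to 3.93 on the 20-week arrays and -0.16 to 0.02 on the 12-week arrays scanned with the 16-week ones, in log2 units over the 75th percentile of the dye. In the NOD dye it was 4.33, -0.01, 2.18 and 0.32 on the 16-week arrays and 6.92, -0.72, -0.33, 0.86 and 5.49 on the 20-week arrays. The part of this tissue in other results was not tested. With the 4 arrays highest in these genes in the NOD dye left out (16-week replicates 1 and 3, 20-week replicates 1 and 5), an alternative chosen after the data were seen, 4116 genes in place of 7287 were called and 1687 in place of 1663 passed the 2-fold minimum. Of those 4116 genes, 1888 were higher and 2228 lower, and list counts in this setting are read beside those numbers. The arrays kept still differed between the ages in the NOD.B10 dye of pancreas genes. Their medians were 5.89 and 5.90 at 16 weeks and 3.68 to 3.85 at 20 weeks, so this setting does not remove that difference.

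Most genes of neutrophil granules rose. In the primary granule list, 5 of 6 tested genes rose, all at least 2-fold. Of all tested genes 22.9% rose and 6.3% rose at least 2-fold. The median ratio of the list went from -1.17 at 16 weeks to 0.96 at 20 weeks. The median of the genes' own changes, which is the median change given for each list, was 2.16 against -0.08 for all genes. Under normexp background correction with loess it was 1.47. The NOD dye carried a median change of 1.68 and the NOD.B10 dye of -0.66. In whole spleen, more cells of a type and more RNA per cell cannot be told apart. Leaving out any single array, or the 4 arrays rich in pancreas genes, left 5 calls.

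Mpo, the myeloperoxidase that makes hypochlorous acid, had log2 ratios of -1.18, -1.77, -1.65 and -1.72 on the 16-week arrays and 0.39, 1.22, 0.82, 1.46 and 0.39 on the 20-week arrays. Every 20-week array lay above 0 and every 16-week array below it. The ratio rose by 2.44 ± 0.24 (SE, adjusted p = 2.1e-05, limma), with 1.47 in the NOD dye and -0.95 in the NOD.B10 dye. Ctsg, the granule protease cathepsin G, went from between -1.97 and -1.69 to between 0.66 and 1.69, a rise of 2.90 ± 0.21 (NOD 2.41, NOD.B10 -0.46). Elane, neutrophil elastase, rose by 1.88 ± 0.23, all of it in the NOD dye (1.93 against 0.07 in the NOD.B10 dye). Prtn3, proteinase 3, rose by 1.65 ± 0.16 (NOD 0.87, NOD.B10 -0.75) and Ms4a3, a membrane protein of granulocyte-monocyte progenitors, by 2.61 ± 0.22 (NOD 1.90, NOD.B10 -0.69). The list also held Gfi1, a repressor needed for neutrophil differentiation, whose ratio changed by 0.08 ± 0.13 (NOD -0.57, NOD.B10 -0.63, adjusted p = 0.63).

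The secondary and tertiary granule list held 15 tested genes, of which 14 rose, 8 of them at least 2-fold, and 1 fell. Of all tested genes 22.9% rose, 6.3% rose at least 2-fold and 30.8% fell. The median ratio of the list went from -1.004 to 0.54. The median change was 1.247, with 1.36 in the NOD dye and -0.12 in the NOD.B10 dye. Without 16-week replicate 1 the median change was 1.53, and without 16-week replicate 2 it was 0.97, with 14 calls of a rise each time. Ngp, neutrophilic granule protein, had ratios of -0.77, -1.35, -1.24 and -1.13 at 16 weeks and 2.50, 2.54, 2.85, 2.93 and 2.50 at 20 weeks. The gap between the highest 16-week and the lowest 20-week array exceeded the range within either age. The rise of 3.79 ± 0.14 (adjusted p = 3.1e-07) corresponded to 13.8-fold and was larger in the NOD dye (4.40), since the NOD.B10 dye rose as well (0.63).

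Camp, the antimicrobial peptide cathelicidin, had ratios of -1.33, -2.38, -2.10 and -2.06 at 16 weeks and 1.60, 2.24, 1.68, 2.32 and 1.75 at 20 weeks. It rose by 3.88 ± 0.23 (14.8-fold), with 2.93 in the NOD dye and -0.93 in the NOD.B10 dye. Ltf, the iron-binding lactoferrin, rose by 3.00 ± 0.28 (NOD 2.96, NOD.B10 -0.02) on 2 probes that changed by 3.00 and 3.39. Mmp8, neutrophil collagenase, spread widely at 16 weeks (-0.96, -2.92, -1.39 and -1.21) and lay at 0.38, 1.29, 0.79, 1.84 and 0.78 at 20 weeks. Its rise was 2.64 ± 0.40 (NOD 2.36, NOD.B10 -0.25), and the ages did not overlap. Lcn2, which withholds iron from bacteria, rose by 2.14 ± 0.27 (NOD 2.20, NOD.B10 0.08), and Cd177, a neutrophil surface protein, by 1.70 ± 0.18 (NOD 1.62, NOD.B10 -0.05), both in the NOD dye. Lyz2, lysozyme of all myeloid cells, was the member called lower, but its brightest probe was saturated in the NOD.B10 dye on 9 of 9 arrays, so no fold is given. With saturated probes left out its change was 0.05 (adjusted p = 0.76). Chil4, a chitinase-like protein outside these lists, rose by 3.75 ± 0.20 (NOD 3.04, NOD.B10 -0.68). Its near-identical copy Chil3 is in the secondary granule list, and a probe may detect both.

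Genes of mature neutrophils did not move as a block. Of 14 tested, 4 rose and 1 fell, against 22.9% and 30.8% of all tested genes. The median change of the list was 0.17, with -0.01 to 0.29 under the alternatives. Without 16-week replicate 1 or without 20-week replicate 4, 2 fell. S100a8, a calcium-binding protein that fills the neutrophil cytosol, had ratios of -1.69, -2.71, -2.41 and -2.65 at 16 weeks and 1.26, 1.61, 1.16, 1.56 and 1.53 at 20 weeks. The rise of 3.79 ± 0.20 was split between the dyes, 1.92 in the NOD dye and -1.85 in the NOD.B10 dye. Its partner S100a9 was called higher too and rose by 2.02 in the NOD dye. Its spot was saturated in the NOD.B10 dye on 4 of 4 arrays of 16 weeks and on 1 array of 20 weeks, so no fold is given for the ratio. Wfdc21 rose by 3.37 ± 0.19 (NOD 2.22, NOD.B10 -1.13) and Retnlg, a resistin-like protein, by 1.16 ± 0.27 (NOD 1.47, NOD.B10 0.34).

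Receptors of mature neutrophils were in the same list. Cxcr2, the receptor that draws neutrophils out of bone marrow, changed by -0.05 ± 0.21 (NOD -0.09, NOD.B10 -0.01, adjusted p = 0.87). Csf3r, the receptor for G-CSF, changed by 0.12 ± 0.32 in the ratio (adjusted p = 0.77), with both dyes higher at 20 weeks, by 1.66 and 1.56. Il1b changed by -0.71 ± 0.33 (NOD -0.56, NOD.B10 0.17, adjusted p = 0.091), and passed the threshold without 16-week replicate 1 (-0.98, adjusted p = 0.024). Slpi, a protease inhibitor, fell by 1.003 on its brighter probe (NOD -0.86, NOD.B10 0.17), and its other probe changed by 0.96 the other way.

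**Figure D1:**
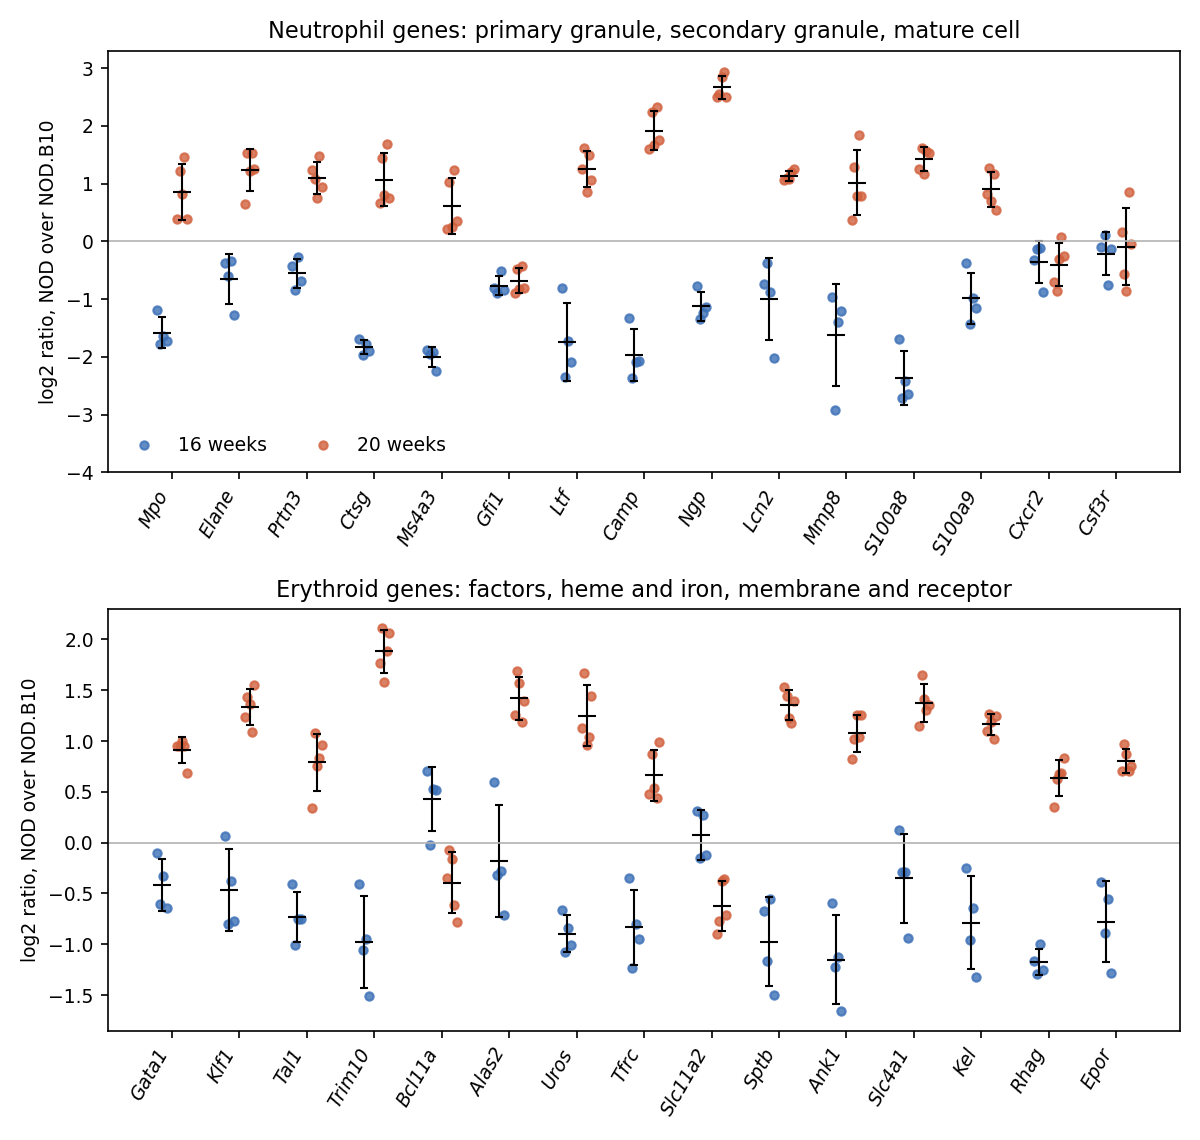
Log2 ratio of NOD over NOD.B10 signal on each array (y axis) for 15 neutrophil and 15 erythroid genes (x axis); blue points are the 4 arrays of 16 weeks, orange points the 5 arrays of 20 weeks, and black marks give mean and SD. The ages lie apart for granule genes such as Ngp and Camp, whose means differ by 3.79 and 3.88, while Gfi1, Cxcr2 and Csf3r overlap, and Bcl11a and Slc11a2 run the opposite way.

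Red cell genes rose together, from transcription factors to the membrane. Of 58 tested genes in the 5 erythroid lists, 55 rose, 2 fell and 1 was not called; these counts stand against 22.9% and 30.8% of all genes. Among the transcription factors, 9 of 10 rose (6 at least 2-fold) and the median change was 1.42, with 1.18 in the NOD dye and -0.28 in the NOD.B10 dye. Klf1, the factor that drives globin and membrane genes, had ratios of 0.06, -0.80, -0.37 and -0.77 at 16 weeks and 1.24, 1.43, 1.37, 1.09 and 1.55 at 20 weeks. It rose by 1.81 ± 0.18 (3.5-fold, adjusted p = 2.3e-05), with 1.60 in the NOD dye and -0.18 in the NOD.B10 dye.

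Gata1, the master factor of the lineage, went from between -0.64 and -0.10 to between 0.68 and 1.001, a rise of 1.33 ± 0.13 (NOD 1.246, NOD.B10 -0.06), most of it in the NOD dye. Nfe2, which binds globin control regions, rose by 1.87 ± 0.19 (NOD 1.24, NOD.B10 -0.61), Lmo2, a bridging protein of the Gata1 complex, by 1.80 ± 0.14 (NOD 1.41, NOD.B10 -0.37), and Tal1, another member of it, by 1.52 ± 0.16 (NOD 1.13, NOD.B10 -0.37). Trim10, a ubiquitin ligase needed for late erythroid differentiation, rose most among the 10 (2.86 ± 0.20, NOD 2.04, NOD.B10 -0.80). Bcl11a, the repressor of embryonic globins, which B cells also express, fell by 0.82 ± 0.18 (NOD -0.53, NOD.B10 0.32). With the 4 arrays rich in pancreas genes left out it changed by -0.53 (adjusted p = 0.15).

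Heme synthesis and iron uptake rose for 13 of 14 tested genes, 11 of them at least 2-fold, with a list median change of 1.53. Here the NOD.B10 dye contributed more: it fell for 10 of the 14 genes (18.7% of all tested genes), with a median of -0.49 against 0.83 in the NOD dye. Alas2, the erythroid enzyme that starts heme synthesis, had ratios of 0.60, -0.32, -0.28 and -0.71 at 16 weeks and 1.255, 1.69, 1.57, 1.18 and 1.40 at 20 weeks. The rise of 1.60 ± 0.23 came with a fall of 1.11 in the NOD.B10 dye, and the NOD dye change of 0.46 did not pass (adjusted p = 0.18). Uros, uroporphyrinogen III synthase, rose by 2.14 ± 0.16 (NOD 1.42, NOD.B10 -0.70), and Abcb10, a mitochondrial transporter, by 2.25 ± 0.25 (NOD 1.12, NOD.B10 -1.103).

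Iron enters precursors through Tfrc, the transferrin receptor, whose ratio rose by 1.496 ± 0.18. That change lay in the NOD.B10 dye, which fell by 1.23, while the NOD dye changed by 0.24 (adjusted p = 0.44). Slc25a37, mitoferrin of the mitochondrial membrane, rose by 1.57 ± 0.16 (NOD 1.77, NOD.B10 0.23). Slc11a2, the iron transporter of endosomes, fell by 0.70 ± 0.15 (NOD -0.72, NOD.B10 0.01), and with the 4 arrays left out it changed by -0.37 (adjusted p = 0.17).

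Every one of 17 tested genes of the red cell membrane and skeleton rose at least 2-fold, and no array of 20 weeks overlapped one of 16 weeks for any of them. Array groups of all genes were separated in this direction for 18.6%. The median ratio went from -0.82 to 1.03, and the median change was 1.85, with 1.09 in the NOD dye and -0.64 in the NOD.B10 dye. With the 4 arrays left out, 16 of 17 were called.

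Sptb, the beta chain of erythroid spectrin, had ratios of -0.67, -1.16, -0.55 and -1.501 at 16 weeks and 1.53, 1.44, 1.23, 1.17 and 1.39 at 20 weeks. The ages did not overlap, and the rise was 2.33 ± 0.19 (NOD 1.96, NOD.B10 -0.34). Ank1, the ankyrin that ties spectrin to the membrane, rose by 2.23 ± 0.19 (NOD 1.46, NOD.B10 -0.74) on its brightest probe, and its 4 probes ranged from 0.31 to 2.23. Slc4a1, the band 3 anion exchanger, rose by 1.72 ± 0.19, with 0.55 in the NOD dye and -1.15 in the NOD.B10 dye. Rhag, an Rh-associated channel, rose by 1.81 ± 0.11 (NOD 1.60, NOD.B10 -0.18), nearly all in the NOD dye, and Kel, a blood group peptidase, by 1.95 ± 0.19, with 1.04 and -0.88 in the 2 dyes.

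Other late genes followed: 14 of 14 rose, 12 at least 2-fold, with a median change of 1.42. Epor, the erythropoietin receptor, rose by 1.58 ± 0.17, mainly through a fall of 1.15 in the NOD.B10 dye, since the NOD dye change of 0.41 did not pass (adjusted p = 0.14). Car2, carbonic anhydrase 2, rose by 2.18 ± 0.15 (NOD 1.61, NOD.B10 -0.55) and Bnip3l, which clears mitochondria from reticulocytes, by 1.89 ± 0.12 (NOD 2.06, NOD.B10 0.20). Globins could be judged least: 3 of 10 listed genes were tested and 2 of them were called higher. Hba-a1 and Hbb-bt were saturated in the NOD.B10 dye on 9 of 9 arrays, so no fold is given. In the NOD dye Hbb-bt was saturated on 1 array of 16 weeks and 5 of 20 weeks, and Hba-a1 on 3 of 20 weeks. Alpha globin copies are near identical and may share probes. Without 16-week replicate 4 the call on Hba-a1 was lost (adjusted p = 0.052), leaving 1 of 3.

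Platelet genes, which share precursors and several factors with red cells, did not rise with them. Of 15 tested genes 2 rose and 4 fell, with a median of -0.16, against 22.9% and 30.8% of all tested genes. With the 4 arrays rich in pancreas genes left out 2 rose and 2 fell, and the median was 0.09. Itga2b, an integrin of megakaryocytes and early progenitors, rose by 1.33 ± 0.21 (NOD 0.72, NOD.B10 -0.58). Ppbp, a platelet chemokine, fell by 0.93 ± 0.15 (NOD -0.46, NOD.B10 0.49) and Selp, the platelet and endothelial selectin, by 1.16 ± 0.12 (NOD -0.67, NOD.B10 0.52). Prg2, the major basic protein of eosinophils, rose by 1.79 ± 0.15 (NOD 2.16, NOD.B10 0.39) in a list of 10 tested mast cell, basophil and eosinophil genes of which it alone was called higher and 2 fell. Without 16-week replicate 4 or without 20-week replicate 5, 2 of the 10 were higher.

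Cell division genes rose as well. In the G2 and M phase list 26 of 29 tested genes rose, 18 of them at least 2-fold. Of all tested genes 22.9% rose and 6.3% rose at least 2-fold. The median ratio of the list went from -0.86 to 0.34, and the median change was 1.08. The NOD dye was higher for 16 of the 29 genes and the NOD.B10 dye lower for 21, with medians of 0.53 and -0.41. Of all tested genes 18% were higher in the NOD dye and 18.7% lower in the NOD.B10 dye. Mki67, the proliferation antigen, had ratios of -0.75, -1.01, -1.01 and -1.47 at 16 weeks and 0.90, 1.43, 0.996, 0.89 and 0.88 at 20 weeks. It rose by 2.08 ± 0.16, with 1.43 in the NOD dye and -0.62 in the NOD.B10 dye. The spindle genes Nusap1 (2.18 ± 0.17, NOD 1.75, NOD.B10 -0.40), Ndc80 (2.04 ± 0.21, NOD 1.14, NOD.B10 -0.88) and Kif11 (1.59 ± 0.21, NOD 0.72, NOD.B10 -0.84) rose too. Cdc20, the activator that starts anaphase, changed by -0.31 ± 0.13 (NOD -0.61, NOD.B10 -0.28, adjusted p = 0.067), and was called lower without 16-week replicate 4 (-0.39, adjusted p = 0.033).

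S phase genes rose for 20 of 27 tested and fell for 1, against 22.9% and 30.8% of all tested genes. Their median change was smaller, at 0.71. Ccne2, a cyclin of S phase entry, rose by 1.83 ± 0.15 (NOD 1.53, NOD.B10 -0.27), Uhrf1, which maintains DNA methylation, by 1.36 ± 0.13 (NOD 1.05, NOD.B10 -0.28), and Rrm2, a subunit of ribonucleotide reductase, by 1.20 ± 0.13 (NOD 0.51, NOD.B10 -0.67). Mcm6, a subunit of the replicative helicase, fell by 0.65 ± 0.14 (NOD -0.09, NOD.B10 0.58), and changed by -0.35 (adjusted p = 0.14) with the 4 arrays left out. Among histone and Polycomb genes, 8 of 14 rose and 2 fell (1 fell without 16-week replicates 3 or 4, or without any of 20-week replicates 1 to 4). H1f5, a linker histone made in S phase, had ratios of -1.81, -2.18, -1.88 and -2.91 at 16 weeks and 1.44, 1.91, 2.23, 1.43 and 1.54 at 20 weeks. Its rise of 3.91 ± 0.24 was split evenly, 1.83 in the NOD dye and -2.05 in the NOD.B10 dye. H2ax, the histone marked at DNA breaks, rose by 1.91 ± 0.09 (NOD 1.002, NOD.B10 -0.88) and Ezh2, the Polycomb methyltransferase, by 1.05 ± 0.10 (NOD 0.54, NOD.B10 -0.48).

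**Figure D2:**
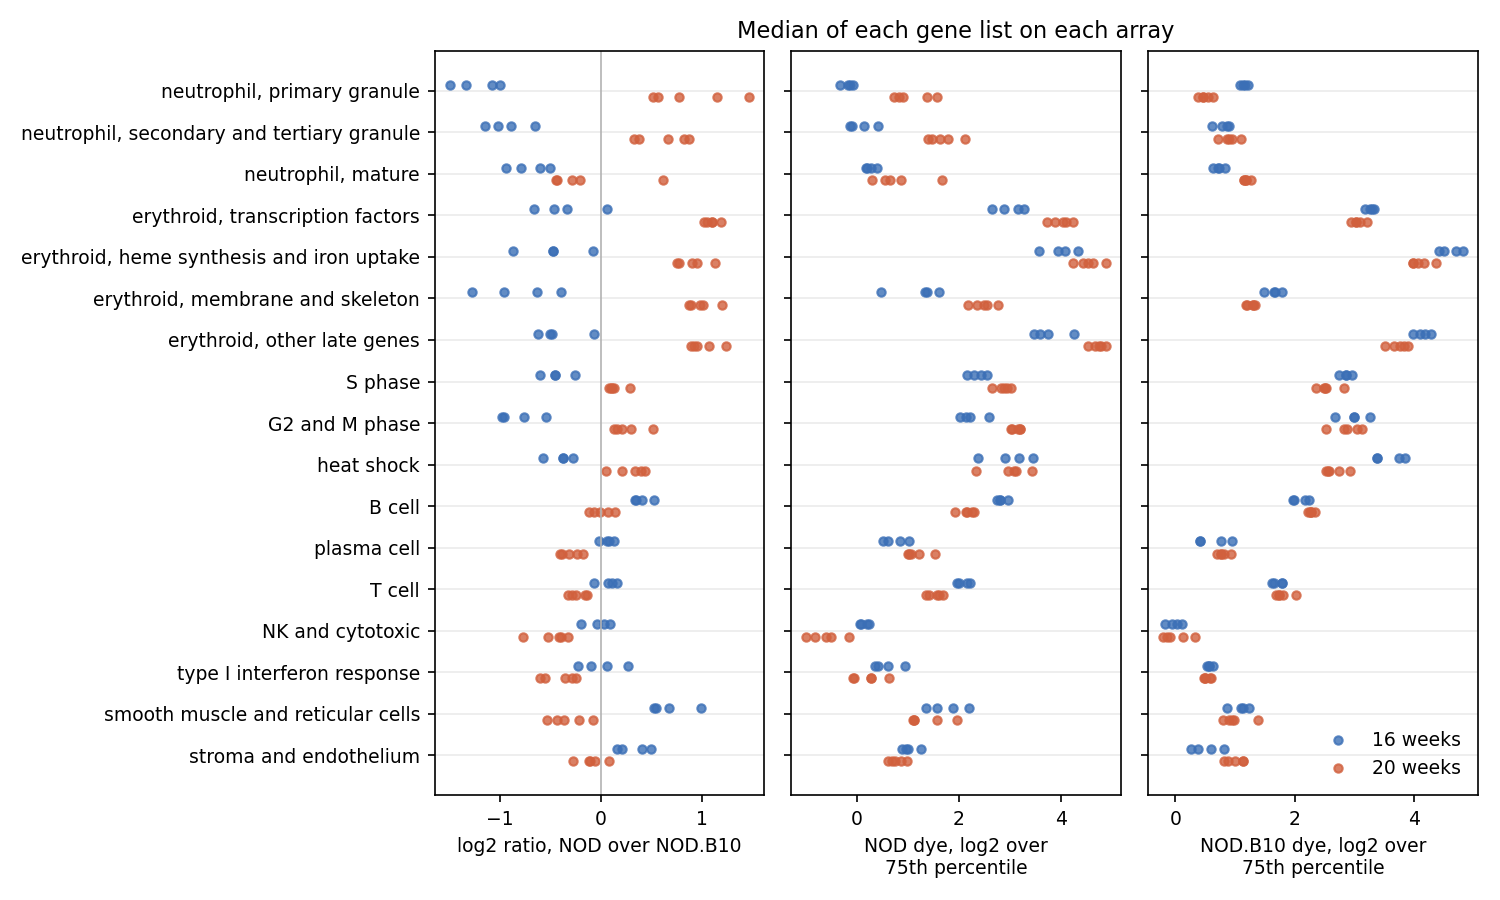
Median of 17 gene lists on each array (globins, with 3 tested genes, are not drawn), for the log2 ratio (left), the NOD dye (middle) and the NOD.B10 dye (right), the dyes in log2 units over their 75th percentile; blue is 16 weeks and orange 20 weeks. The 2 granule lists, the erythroid lists shown and the 2 division lists sit to the right at 20 weeks in the ratio, with no overlap of the ages, and the erythroid membrane list lies lower in the NOD.B10 dye (1.18 to 1.33 against 1.48 to 1.79).

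Genes of contractile and reticular cells fell. Of 17 tested genes, 13 fell (7 at least 2-fold) and 1 rose. Of all tested genes 30.8% fell, 5.97% fell at least 2-fold and 22.9% rose. The median ratio of the list went from 0.89 to -0.42, and the median of the genes' own changes was -0.82. The NOD dye fell for 9 of the 17 and the NOD.B10 dye rose for 9, against 19.2% and 29.7% of all tested genes. Without any single array, or the 4 arrays left out together, 13 fell. Tagln, transgelin of smooth muscle, had ratios of 1.21, 1.46, 1.71 and 1.66 at 16 weeks and -0.70, -0.41, 0.18, -0.47 and -0.71 at 20 weeks. It fell by 1.93 ± 0.19, with -1.31 in the NOD dye and 0.65 in the NOD.B10 dye.

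Myh11, smooth muscle myosin, fell by 1.78 ± 0.31 (NOD -1.71, NOD.B10 0.10), Cnn1, calponin, by 1.80 ± 0.34 (NOD -1.69, NOD.B10 0.14), and Lmod1, which nucleates actin in smooth muscle, by 2.46 ± 0.37 (NOD -2.03, NOD.B10 0.45). On these 3 genes 20-week replicate 5 was the lowest array, with -2.81 for Lmod1 against -1.76 to -0.75 on the other 20-week arrays. Acta2, smooth muscle actin, fell by 2.30 ± 0.18 (NOD -1.67, NOD.B10 0.65) on its brightest probe, but its 4 probes ranged from -2.30 to 0.72. Ccl19, the chemokine by which reticular cells hold T cells in the white pulp, fell by 1.54 ± 0.12, with -0.81 in the NOD dye and 0.76 in the NOD.B10 dye. Des, desmin, changed by -0.09 ± 0.18 (NOD 0.46, NOD.B10 0.57, adjusted p = 0.71), and Actg2, the enteric form of smooth muscle actin, was the member that rose (0.51 ± 0.09, NOD 0.05, NOD.B10 -0.43).

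Matrix and endothelial genes were mixed: 8 of 21 tested fell and 2 rose, with a median of -0.27. Of all tested genes 30.8% were called lower and 22.9% higher. Col1a1, the alpha 1 chain of type I collagen, had ratios of 0.54, 0.86, 1.17 and 1.11 at 16 weeks and -1.98, -1.67, -2.01, -1.72 and -2.43 at 20 weeks. The fall of 2.88 ± 0.18 lay more in the NOD.B10 dye, which rose by 1.75, than in the NOD dye, which fell by 1.16. Col1a2, the other chain of the same collagen, fell by 1.15 ± 0.17, with -1.246 in the NOD dye and -0.07 in the NOD.B10 dye, so the chains differed in the NOD.B10 dye. Sparc, a matrix protein, fell by 1.21 ± 0.16 (NOD -1.12, NOD.B10 0.11) and Lamc1, a laminin chain, by 1.11 ± 0.13 (NOD -0.23, NOD.B10 0.90), whereas Fn1, fibronectin, rose by 0.90 ± 0.19 (NOD 1.23, NOD.B10 0.35). Of 12 tested adipose genes 5 fell and 1 rose, and 9 fell without 16-week replicate 2, 8 without 20-week replicate 3, and 3 with the 4 arrays left out. Lpl, lipoprotein lipase, fell by 1.47 ± 0.14 (NOD -1.14, NOD.B10 0.35) on its brighter probe and changed by 0.45 on the other, and Adipoq, the fat hormone adiponectin, fell by 1.44 ± 0.33 (NOD -1.40, NOD.B10 0.07), a call lost with the 4 arrays left out (-1.20, adjusted p = 0.051).

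Ratios of lymphocyte lists fell by small amounts, and their counts stand against 30.8% of all tested genes called lower and 22.9% called higher. In the NOD dye 19.2% of all tested genes were lower and 18% higher, and in the NOD.B10 dye 18.7% were lower and 29.7% higher. Of 21 tested B cell genes 11 fell and 2 rose, with a median change of -0.51, and of 15 plasma cell genes 10 fell and 1 rose, with a median of -0.49. The NOD dye was lower for 8 B cell genes and higher for 0, and the NOD.B10 dye was lower for 3 and higher for 7. For plasma cell genes the NOD dye was lower for 3 and higher for 1, and the NOD.B10 dye was lower for 0 and higher for 7. With the 4 arrays left out, 10 of the B cell and 8 of the plasma cell genes fell and 0 rose. The plasma cell rise was also lost without 16-week replicates 1, 2 or 3 or 20-week replicates 1 or 5. Fcer2a, the low-affinity IgE receptor of follicular B cells, had ratios of 1.45, 1.06, 0.89 and 1.39 at 16 weeks and -0.26, -0.11, -0.52, -0.51 and -0.62 at 20 weeks. It fell by 1.60 ± 0.15, about equally in the NOD dye (-0.74) and the NOD.B10 dye (0.89). Fcmr, the IgM Fc receptor, fell by 1.41 ± 0.09 (NOD -0.31, NOD.B10 1.12), mostly through the NOD.B10 dye, and Ms4a1, which encodes CD20, fell by 1.07 ± 0.17 (NOD -0.94, NOD.B10 0.16), with its other probe at -0.10. The signalling chain Cd79a changed by -0.03 ± 0.14 (NOD -0.02, NOD.B10 0.04, adjusted p = 0.88), and the scaffold Bank1 rose by 0.91 ± 0.20 (NOD -0.004, NOD.B10 -0.89), a call lost with the 4 arrays left out (0.69, adjusted p = 0.078).

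Among T cell genes 10 of 23 tested fell and 2 rose, with a median of -0.37, and with the 4 arrays left out 5 fell and 0 rose. Under normexp background correction the median was -0.19. The NOD dye was lower for 12 of the 23 and higher for 1, and the NOD.B10 dye was lower for 8 and higher for 6. Cd3e and Cd3d, chains of the T cell receptor complex, fell by 1.33 ± 0.15 (NOD -1.48, NOD.B10 -0.13) and 0.70 ± 0.08 (NOD -0.62, NOD.B10 0.10), and Cd8a and Cd8b1, the CD8 coreceptor, by 0.96 ± 0.12 (NOD -0.79, NOD.B10 0.19) and 0.88 ± 0.17 (NOD -0.87, NOD.B10 0.03), each mostly in the NOD dye. Lck, the kinase bound to these coreceptors, changed by -0.11 ± 0.10 (NOD -0.07, NOD.B10 0.06, adjusted p = 0.40). In the NK and cytotoxic list 11 of 19 fell and 0 rose, and with the 4 arrays left out 5 fell. Without 16-week replicate 2 or without 20-week replicate 3, 1 of them rose. The NOD dye was lower for 4 of the 19 and higher for 2, and the NOD.B10 dye was lower for 2 and higher for 9. Klrk1, the receptor NKG2D, had ratios of 0.26, 0.32, 0.52 and 0.21 at 16 weeks and -1.47, -0.41, -1.48, -1.252 and -1.28 at 20 weeks, a fall of 1.51 ± 0.20 (NOD -1.251, NOD.B10 0.28). Ccl5, a chemokine of memory and cytotoxic cells, fell by 1.36 ± 0.12 (NOD -0.53, NOD.B10 0.85), on another probe by 0.28.

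Macrophage genes were mixed, with 10 of 21 lower and 4 higher, against 30.8% and 22.9% of all tested genes. Without 16-week replicate 1, 16-week replicate 3 or 20-week replicate 1, 2 were higher, and with the 4 arrays left out 1 was. Siglec1, the sialic acid receptor of marginal metallophilic macrophages, had ratios of 0.26, 0.74, 0.48 and 0.52 at 16 weeks and -1.02, -1.62, -1.16, -2.26 and -1.61 at 20 weeks. It fell by 2.03 ± 0.23 (NOD -1.36, NOD.B10 0.70). Adgre1, the F4/80 antigen of red pulp macrophages, fell by 0.91 ± 0.11 (NOD -0.34, NOD.B10 0.60), while C1qa, a complement subunit, rose by 0.67 ± 0.13 (NOD 0.76, NOD.B10 0.11).

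Interferon-response genes went both ways: 12 of 23 tested fell, 5 of them at least 2-fold, and 4 rose. Of all tested genes 30.8% were called lower and 22.9% higher. With the 4 arrays left out 7 interferon-response genes fell and 3 rose. Cxcl10, a chemokine for activated T cells, had ratios of 0.73, 0.23, 0.39 and 0.42 at 16 weeks and -0.96, -0.73, -1.43, -1.02 and -1.12 at 20 weeks. It fell by 1.49 ± 0.15 (NOD -1.81, NOD.B10 -0.28), and Rtp4 fell by 1.498 ± 0.18 (NOD -1.17, NOD.B10 0.35). Rsad2, the antiviral enzyme viperin, rose by 1.75 ± 0.19 (NOD 0.84, NOD.B10 -0.88) on 3 probes between 1.75 and 2.41, and Isg15, a ubiquitin-like protein, rose by 0.87 ± 0.11 (NOD -0.30, NOD.B10 -1.15) with a lower NOD.B10 dye. Among NF-kB targets 8 of 16 fell and 0 rose (3 fell with the 4 arrays left out, and 1 rose without 16-week replicate 2 or without 20-week replicate 2), among them Icam1 (-1.44 ± 0.11, NOD -1.13, NOD.B10 0.33, with another probe at 0.21) and Ccl4 (-1.33 ± 0.25, NOD -1.83, NOD.B10 -0.48).

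The 6 largest falls of the ratio among genes with a RefSeq symbol were in genes of no list. Olfr1497, an olfactory receptor gene, had ratios of 2.83, 2.16, 2.59 and 2.07 at 16 weeks and -3.21, -2.94, -2.70, -3.203 and -3.54 at 20 weeks. It fell by 5.53 ± 0.20 (46.2-fold, adjusted p = 2.6e-07), with -4.39 in the NOD dye and 1.16 in the NOD.B10 dye. Rasd2, a small GTPase known from striatum, fell by 5.42 ± 0.27 (NOD -3.65, NOD.B10 1.80), Lrrc3b by 5.08 ± 0.25 (NOD -3.68, NOD.B10 1.43), Zfp469 by 4.78 ± 0.17 (NOD -3.34, NOD.B10 1.47) and Chrne, a subunit of the muscle acetylcholine receptor, by 3.97 ± 0.18 (NOD -3.33, NOD.B10 0.67). In each of them the NOD dye fell and the NOD.B10 dye rose. Spry2, an inhibitor of growth factor signalling, fell by 4.90 ± 0.24 (NOD -3.29, NOD.B10 1.64) on 1 probe and by 0.13 on another.

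The array values of these genes ran closely parallel. On the 16-week arrays Olfr1497, Rasd2, Lrrc3b, Spry2 and Zfp469 had ratios of 2.80 to 2.89 on replicate 1, 2.16 to 2.39 on replicate 2, 2.59 to 2.92 on replicate 3 and 1.80 to 2.10 on replicate 4. On the 12-week arrays of the same scan day they lay between 1.95 and 2.09, and on the 12-week arrays of another day between 0.61 and 1.79. On the 10-day arrays scanned with the 20-week arrays they lay between -0.39 and 0.33. The 5 genes lie on chromosomes 8, 14 and 19, and the probe sequences were not analysed here. Whether these probes detect 1 shared signal rather than the named genes was not tested.

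Further large falls included Clec2d, a ligand of an NK cell receptor, which fell by 3.49 ± 0.20 and mainly in the NOD.B10 dye (2.35 against -1.17). Slc12a2, an ion cotransporter, fell by 3.01 ± 0.18 (NOD -1.87, NOD.B10 1.16). Ybx2, a germ cell RNA-binding protein, fell by 2.64 ± 0.19 (NOD -3.75, NOD.B10 -1.08), and Tubb3, a neuronal tubulin, by 2.47 ± 0.25 (NOD -2.94, NOD.B10 -0.45); in both genes the NOD.B10 dye fell too. Ccl24, an eosinophil chemokine, fell by 2.53 ± 0.65 (NOD -2.19, NOD.B10 0.36) with overlapping arrays, since 16-week replicate 1 had 0.20 and 20-week replicates 3 and 5 had 0.48 and 0.96.

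**Figure D3:**
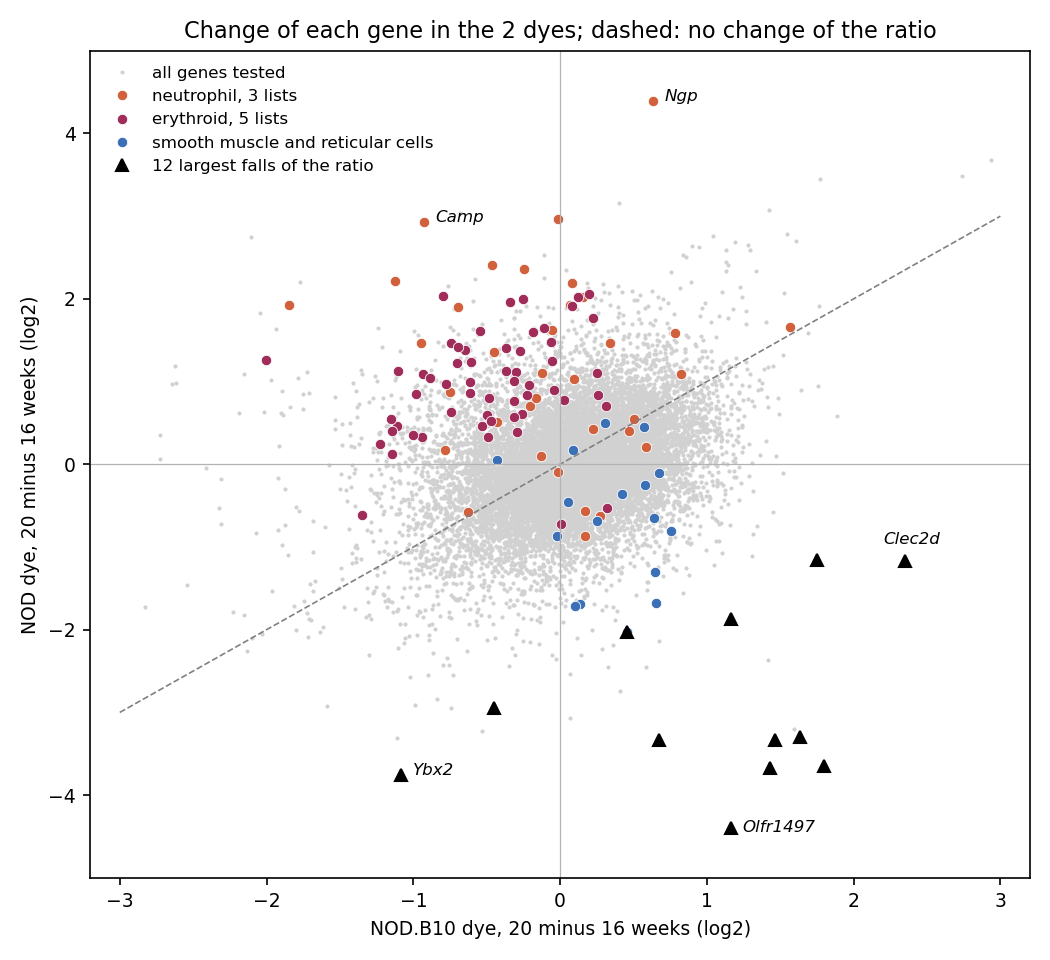
Change from 16 to 20 weeks of each tested gene in the NOD.B10 dye (x axis) and the NOD dye (y axis), in log2 units over the 75th percentile of each dye; orange marks neutrophil lists, purple erythroid lists, blue smooth muscle and reticular genes, black triangles the 12 largest falls of the ratio, and the dashed line no change of the ratio. Ngp lies at a NOD dye change of 4.40 and Olfr1497 at -4.39, while Clec2d owes more to the NOD.B10 dye.

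Some ratios changed with 75% to 125% of the change in the NOD.B10 dye. The largest rises of this kind were Ramp2, a receptor-modifying protein (2.17 ± 0.34, NOD 0.23, NOD.B10 -1.92), Acp1, a small phosphatase (1.99 ± 0.17, NOD 0.43, NOD.B10 -1.54), and Hmgn5, a nucleosome-binding protein (1.81 ± 0.21, NOD 0.35, NOD.B10 -1.43). Kif20b, a mitotic kinesin (1.79 ± 0.17, NOD -0.16, NOD.B10 -1.92), and Smc2, a condensin subunit (1.74 ± 0.18, NOD 0.23, NOD.B10 -1.49), completed the 5 largest. In the other direction stood Nol6 (-1.61 ± 0.15, NOD -0.32, NOD.B10 1.31), Glb1l (-1.59 ± 0.17, NOD -0.10, NOD.B10 1.52), Abhd1 (-1.46 ± 0.10, NOD -0.36, NOD.B10 1.12), Setd1b (-1.44 ± 0.20, NOD -0.23, NOD.B10 1.23) and Khdrbs1 (-1.43 ± 0.12, NOD -0.29, NOD.B10 1.16). NOD dye changes of these 10 genes lay between -0.36 and 0.43 and none passed the test. Probes disagreed for 2 of them: Ramp2 had another probe at -0.77 and Khdrbs1 had one at 0.73.

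Further rises near the top were outside the neutrophil, erythroid and division lists. Arl6ip5, a membrane protein of the endoplasmic reticulum, rose by 3.60 ± 0.20 (1.64 in the NOD dye, -1.93 in the NOD.B10 dye). Anxa1, an annexin abundant in neutrophils, had ratios of -0.99, -1.12, -1.28 and -0.88 at 16 weeks and 1.88, 2.26, 1.41, 1.996 and 1.83 at 20 weeks, a rise of 2.94 ± 0.16 (NOD 2.15, NOD.B10 -0.76). Reg2, with the largest rise among called genes with a symbol and no overlap of arrays, belongs to the exocrine pancreas list. Its ratios were -5.40, -7.41, -4.36 and -6.85 at 16 weeks and 3.23, -4.22, -3.78, -2.72 and 1.83 at 20 weeks. It rose by 4.88 ± 1.51 (NOD 2.74, NOD.B10 -2.11, adjusted p = 0.019), and missed the threshold without 16-week replicate 2 (adjusted p = 0.051) or without 16-week replicate 4 (adjusted p = 0.051). Cela1 and Gp2, a pancreatic elastase and a zymogen granule protein, were the other 2 of 24 tested pancreas genes called, at 3.62 ± 1.36 (NOD 0.98, NOD.B10 -2.61) and 2.60 ± 0.81 (NOD 0.86, NOD.B10 -1.71), and the NOD.B10 dye fell for 23 of the 24. Their number changed with single arrays: 0 were called without 16-week replicate 2 or 4, 6 without 16-week replicate 1, 5 without 20-week replicate 2 or 3, and 16 with the 4 arrays left out.

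Where a gene had several kept probes, they can be set against each other. Of 423 such genes called with a change of at least 2-fold, all probes moved the same way in 75.2%, in 82.9% of the higher and 64.6% of the lower genes, against 59.7% of all genes with over 1 probe. A probe in the opposite direction was present for 63 of 178 genes that fell and 42 of 245 that rose.

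Scan days could be compared only inside other ages, a check added after the data were seen. Over all genes the median size of the change from 16 to 20 weeks was 0.41, that of the difference between 12-week arrays of the 16-week scan day and of another day was 0.13, and that between 10-day arrays of the 20-week scan day and of other days was 0.17. Among the 854 genes that rose at least 2-fold, 4 (0.468%) differed at least 2-fold between scan days at 12 weeks and 7 (0.82%) at 10 days. Among the 809 that fell, 2 (0.247%) and 9 (1.11%) did. Of all 13556 tested genes, 65 (0.479%) and 74 (0.546%) did, so both sets were above that share at 10 days. Median sizes of the day differences at 12 weeks and 10 days were 0.21 and 0.29 for the genes that rose. For the genes that fell they were 0.14 and 0.17. The 10-day arrays of other days were read with other versions of the scanner software (8.1.1.1 and 9.1.3.1, against 8.5.1.1). These values cover the scan days of those arrays and not the 2 ages themselves.

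List medians on the 12-week arrays of the 16-week scan day place the 16-week values. The primary granule median was -0.14 there against -1.17 at 16 weeks and 0.96 at 20 weeks. The erythroid membrane median on those 12-week arrays was -0.39, -1.11 and -3.40, and on the 12-week arrays of another day -1.37 and -2.79, all below the 20-week value of 1.03. The array at -3.40 is 12-week replicate 5, and the other 2 arrays of that day lay within the range of the 16-week arrays. The G2 and M phase median was -0.55, -1.12 and, on replicate 5, -2.44, and on another day -1.31 and -2.11, against -0.86 at 16 weeks. That of smooth muscle and reticular genes was 1.101 on the day of the 16-week arrays and 0.84 on the other. Ngp itself had a ratio of 0.09 on those 12-week arrays and Camp -0.45, both between their 16-week and 20-week values.

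**Figure D4:**
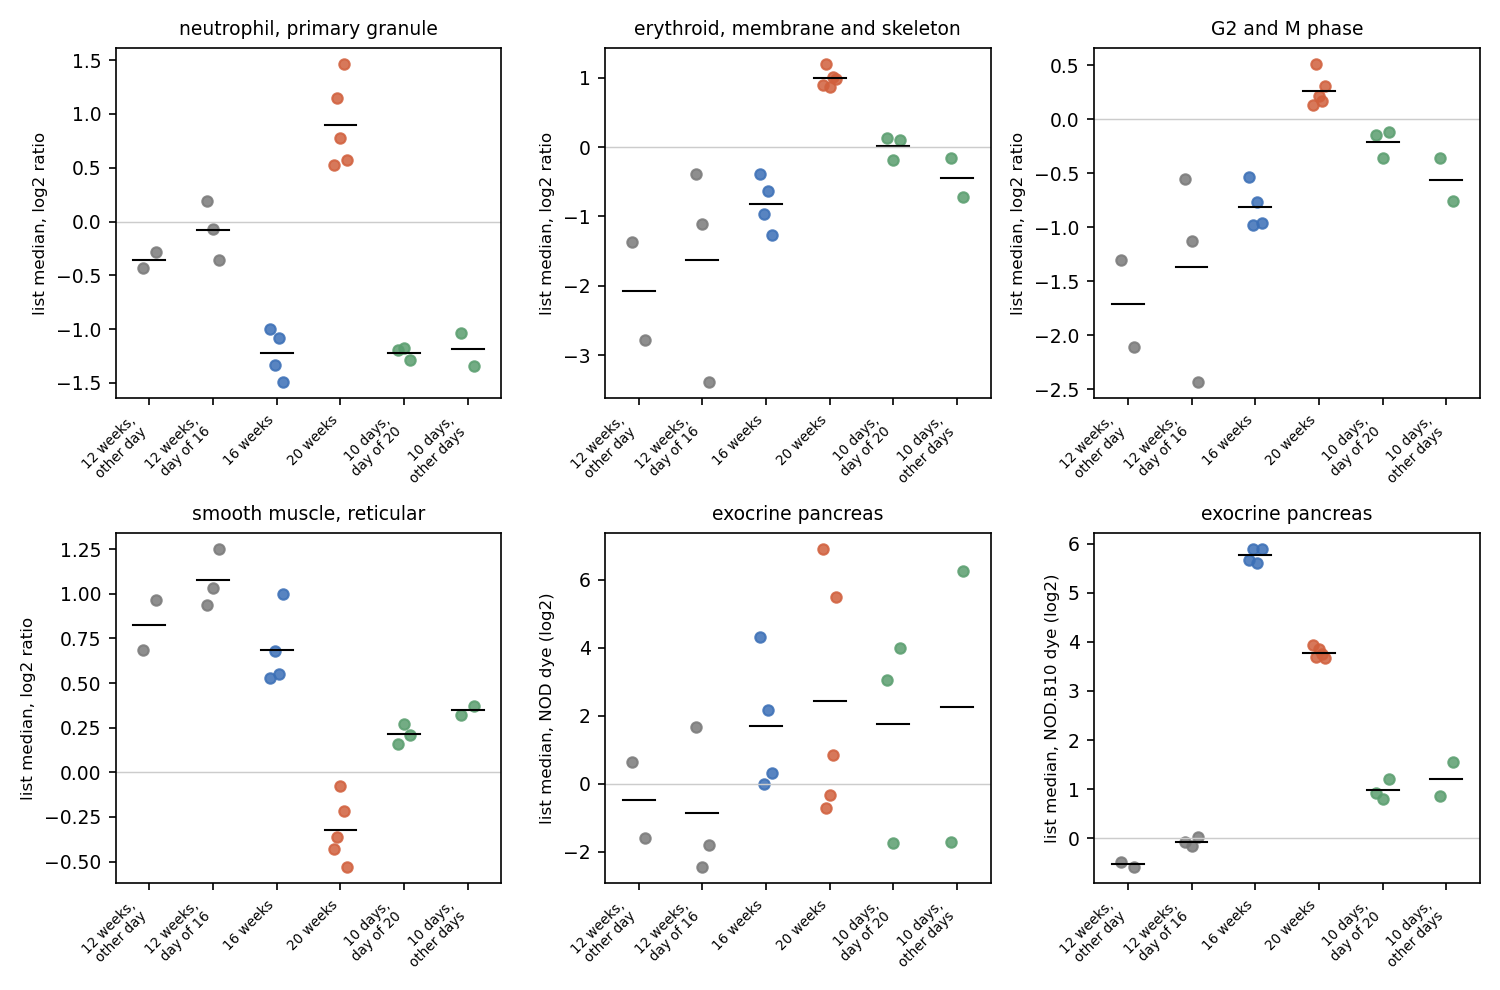
List medians on each array (points; black lines are means over arrays) for 12 weeks on another scan day, 12 weeks on the scan day of 16 weeks, 16 weeks, 20 weeks, and 10 days on the scan day of 20 weeks and on other days; y axes are log2 ratios in 4 panels and the NOD and NOD.B10 dye levels of exocrine pancreas genes in the last 2. The 20-week medians lie above those of the other groups shown in the granule, erythroid and division panels and below them in the smooth muscle panel, and the NOD.B10 dye of pancreas genes is near 0 at 12 weeks and above 5 on all 16-week arrays.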

How the data were processed

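Each array is a 2-colour whole mouse genome oligonucleotide array. The authors' deposited scanner tables hold intensity values (processed signals in both dyes, per the file headers), and the deposited log10 ratio and value table equalled the ratio of those signals. The submitters' processing notes name Feature Extraction 8.5, and the file headers give 8.5.1.1 for the 16-week and 20-week arrays and 8.1.1.1 or 9.1.3.1 for some arrays of other ages. Flag columns of the deposited tables (other) gave background, outlier and saturation calls.

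The ratio was log2 of green over red processed signal. Each dye was also taken as log2 signal minus the array's 75th percentile. Control spots and outlier spots were left out, spots of a probe were averaged, and a probe had to be called well above background in the green and in the red channel on each of the 9 arrays. The brightest of a gene's probes stood for the gene, which left 13556 genes from 18260 probes, 11258 of them with a RefSeq symbol. Of these, 142 genes lacked an array. Limma 3.58.1 in R 4.3.3 compared the ages, with Benjamini-Hochberg adjustment over all genes at 0.05, after tests on simulated data. The number of arrays limits the precision.

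Named genes were the 12 largest rises and falls with a symbol and no overlap of arrays, up to 4 called members of each list by size, defining members not called, and the 5 largest changes in each direction carried by 1 dye. A few genes this rule takes in are not reported here. Kel and the members of the lists, like the lists and comparisons themselves, were chosen with earlier results of these data known. Alternatives covered normexp and loess, centring, filters, saturated probes, probe averaging, all 27 arrays, blocks and each array left out. Probe sequences were not analysed here.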

Additional observations from a re-analysis of the deposited data

Results flagged for a closer look

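Among 266 sets of arrays of 1 age and gene, 8 held an array whose gap to its nearest neighbour was large for the range of its age. By chance about 1 in 20 would, so the 8 are fewer than chance gives. On 20-week replicate 2, Mki67 had a log2 ratio of 1.43 (other arrays of the age 0.88 to 0.996), Klrk1 -0.41 (-1.48 to -1.252) and Hspa8, a heat shock chaperone, 0.58 (0.84 to 0.93). On 20-week replicate 4, Hp had 0.99 (0.32 to 0.51). On 20-week replicate 5, Gata1 had 0.68 (0.95 to 1.001), and on 20-week replicate 1, Ezh2 had 0.26 (0.49 to 0.59). On 16-week replicate 4, Ms4a3 had -2.25 (-1.94 to -1.89), and on 16-week replicate 3, Lpl had 1.03 (0.55 to 0.62). Each of these genes was called in the same direction without that array.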

How the results depend on the processing

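Scan day as a fixed block was not run because no scan day held both ages; as a random block it was not run because each age had a day of its own, so day and age cannot be told apart; slide as a block was not run because 27 slides held 27 arrays. With the 4 arrays rich in pancreas genes left out (chosen after seeing the data), 4116 ratio calls remained in number (1888 higher, 2228 lower), 1156 in the NOD dye (604 and 552) and 2502 in the NOD.B10 dye (1400 and 1102), and list medians were 2.64 (primary granule), 1.62 (secondary granule), 1.66 (erythroid factors) and 1.64 (other late erythroid genes). A 2-fold minimum left 1663 ratio calls (854, 809), 1413 in the NOD dye (693, 720) and 516 in the NOD.B10 dye (234, 282). With all 27 arrays sharing the spread, calls were 2919 in the NOD dye (1406, 1513) and 2843 in the NOD.B10 dye (1708, 1135). Normexp with loess gave list medians of 1.47 (primary granule), 0.77 (secondary granule), 0.75 (G2 and M phase) and -0.19 (T cell), 709 calls of at least 2-fold, and 18.2% in place of 45.3% higher among NOD.B10 dye calls of that size. The mean of probes gave -0.27 for T cells, and a filter on either dye gave 2495 calls of at least 2-fold. Leaving out each array gave 6334 to 7069 ratio calls, 4086 to 5357 in the NOD dye, 5573 to 7077 in the NOD.B10 dye and 0.97 to 1.53 for the secondary granule list. Lyz2 reversed to 0.053 with saturated probes left out. Slpi (-0.02, adjusted p = 0.92, limma) and Khdrbs1 (-0.01, adjusted p = 0.96) lost their calls with the mean of probes; Actg2 (adjusted p = 0.058) and Ccl4 (adjusted p = 0.080) lost theirs with the 4 arrays left out. Cela1 lost its call under 7 alternatives and Gp2 without 16-week replicates 2 or 4. The cause of these moves was not tested. Replicate numbers did not pair the samples (same-number correlations of deviations 0.31, 0.13, 0.006 and 0.12; only pair 1 correlated best with its own number), and with the replicate block 6530 ratio, 4193 NOD dye and 6032 NOD.B10 dye genes were called.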

Other observations

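Stress genes changed as well. Of 16 tested heat shock genes 12 rose and 0 fell, with a median ratio change of 0.53, and with the 4 arrays rich in pancreas genes left out 6 rose. The list median changed by 0.05 in the NOD dye and by -0.34 in the NOD.B10 dye, which fell for 10 of the 16 (18.7% of all tested genes). Hspa8, the constitutive chaperone, differed from that pattern: it rose by 1.20 ± 0.11 (NOD 1.18, NOD.B10 0.01). Dnaja1, a cochaperone, rose by 1.59 ± 0.16 (NOD 0.45, NOD.B10 -1.12), and its 3 probes ranged from 0.36 to 1.59. In the unfolded protein response list 10 of 20 rose and 3 fell, against 22.9% and 30.8% of all tested genes. Hspa5, the chaperone of the endoplasmic reticulum, had ratios of -0.43, -0.40, -0.44 and -0.39 at 16 weeks and 0.85, 0.73, 0.63, 0.59 and 0.65 at 20 weeks, a rise of 1.11 ± 0.09 (NOD 1.17, NOD.B10 0.08). Manf, a secreted factor of the same response, rose by 1.01 ± 0.10 (NOD 1.12, NOD.B10 0.13), and Pdia4, a disulfide isomerase, by 1.07 ± 0.16 (NOD 1.82, NOD.B10 0.77) with both dyes higher.

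Immediate early genes, which respond within minutes to stimulation or to tissue handling, were mixed: 6 of 26 rose and 5 fell. As a list they did not stand out: 22.9% of all tested genes were called higher and 30.8% lower. With the 4 arrays left out 5 rose and 2 fell. Sik1, a kinase of this class, was among the most variable at 16 weeks, with ratios of -0.27, 2.01, 1.31 and 0.22, and lay between 2.58 and 3.50 at 20 weeks (change NOD 1.48, NOD.B10 -0.83). Ppp1r15a, which restores translation after stress, had ratios of -0.19, -0.30, -0.18 and -0.62 at 16 weeks and 2.64, 2.64, 2.44, 2.38 and 2.52 at 20 weeks. Its rise of 2.85 ± 0.12 (NOD 2.24, NOD.B10 -0.58) lay mainly in the NOD dye. Tissue handling times are not given in the sources used here, and their part in these genes was not tested.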
